A study of Macaca mulatta with 30 samples.

Results

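The glycine receptor subunit genes measured here were GLRA1, GLRA2 and GLRA3, which encode alpha subunits, and GLRB, which encodes the beta subunit. They were chosen by name: a probe set belonged to a member when its only annotated gene symbol was that gene, and each of the 4 members had exactly 1 such probe set. All 4 were found among 15534 genes with such a probe set, and all 4 had a mean over the 30 arrays above the filter on dim probe sets (6.04 on the log2 scale), as did 11443 genes in all. The genes were singled out with earlier results of these arrays in view, namely that GLRA2 and GLRA3 differed between regions and that GLRA1 differed between hemispheres. Those contrasts, and all region comparisons of GLRA1, are therefore given as values without a test.

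The samples were frozen post-mortem cortex of 5 rhesus macaques, and 30 Affymetrix arrays were run, 1 for each region and hemisphere of each animal. VFC is ventrolateral prefrontal cortex at the arcuate sulcus, the counterpart of area 44 in Broca's area. STC is posterior superior temporal cortex, the counterpart of Wernicke's area, and M1C is the forelimb field of primary motor cortex. Animals 1, 2 and 3 were female and aged 7.3, 5.5 and 8.6 years, and animals 4 and 5 were male and aged 4.2 and 2.0 years, so sex and age cannot be told apart from the animal. Each array held the RNA of a piece of whole cortex with all its cell types, so fewer cells of a type and less RNA per cell cannot be told apart.

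Glycine receptors are chloride channels of the same pentameric family as the GABA-A receptors. Alpha subunits carry most of the glycine binding site and can form channels on their own, while the beta subunit binds gephyrin and so anchors mixed receptors at inhibitory synapses. GLRA1 with GLRB makes up the adult synaptic receptor of spinal cord and brainstem, and mutations in either gene cause hereditary startle disease in humans. GLRA2 is the form best known from immature neurons, GLRA3 is known from the dorsal horn, where it takes part in pain signalling, and in adult forebrain much of the glycine response is carried by receptors outside synapses.

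The labels of 2 arrays went against their values. Of the 30 arrays, 28 resembled the other arrays of their own animal most and 25 resembled their own region most. The array labelled M1C left of animal 3 had a correlation of -0.059 with the rest of that animal, of 0.085 with animal 4, its nearest, and of -0.26 with the M1C profile of the other animals. Its value for the Y-linked gene EIF1AY was 8.34, against 6.83 to 7.87 on the other arrays of females. The array labelled STC right of animal 4 had a correlation of 0.087 with its own animal, of 0.20 with animal 3, its nearest, and of 0.35 with the M1C profile, and its EIF1AY value was 7.25, against 8.29 to 8.57 on the other arrays of males. Each of these arrays thus lay nearest the animal of the other and had the EIF1AY level of the other's sex, while the profile of M1C left of animal 3 was nearest VFC and not STC. Whether the 2 arrays were exchanged was not tested, they were not relabelled, and the values printed for animals 3 and 4 in M1C and STC depend on it. Most region and hemisphere differences of the members are given with all arrays and without these 2. Variance shares, correlations between genes and the differences of single genes other than the members are given with all arrays only. A wider set of 4 arrays, with the right STC array of animal 3 and the left VFC array of animal 4 added, was also left out; those added arrays lay nearest their own animal and region.

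GLRA1, the alpha subunit of the adult spinal receptor, read higher in motor cortex than in the other regions. With the hemispheres averaged, it read 5.99, 5.66, 5.60, 5.75 and 5.82 in VFC of animals 1 to 5. In STC it read 5.70, 5.75, 5.75, 6.35 and 5.79 in the same animals. In M1C it read 7.07, 6.97, 6.44, 6.70 and 6.19. The lowest M1C value, that of animal 5, lay above all VFC values and above every STC value except that of animal 4. The right STC array of animal 4 was among those that stood apart. For this and the later separations of regions, the share of all probe sets that separate likewise is not given. The regional means were 5.76 ± 0.15 in VFC, 5.87 ± 0.27 in STC and 6.67 ± 0.37 in M1C (SD, n = 5 animals). The VFC and STC means lay below the filter of 6.04 and the M1C mean above it, so the gene passed the filter through M1C alone, and these values carry no detection call.

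The GLRA1 difference was -0.91 ± 0.14 for VFC minus M1C, which is 1.88-fold lower in VFC, and it was negative in 5 of 5 animals (differences are on the log2 scale, ± SE from limma). For STC minus M1C it was -0.81 ± 0.14, 1.75-fold lower in STC, again in 5 of 5 animals. These differences were -1.02 and -1.0 once the 2 arrays that stood apart were left out. VFC and STC lay close together, with a VFC minus STC difference of -0.10 ± 0.14 whose sign was mixed over animals. The size of the VFC minus M1C difference varied between animals, from -1.31 in animal 2 to -0.37 in animal 5, the youngest.

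**Figure D1:**
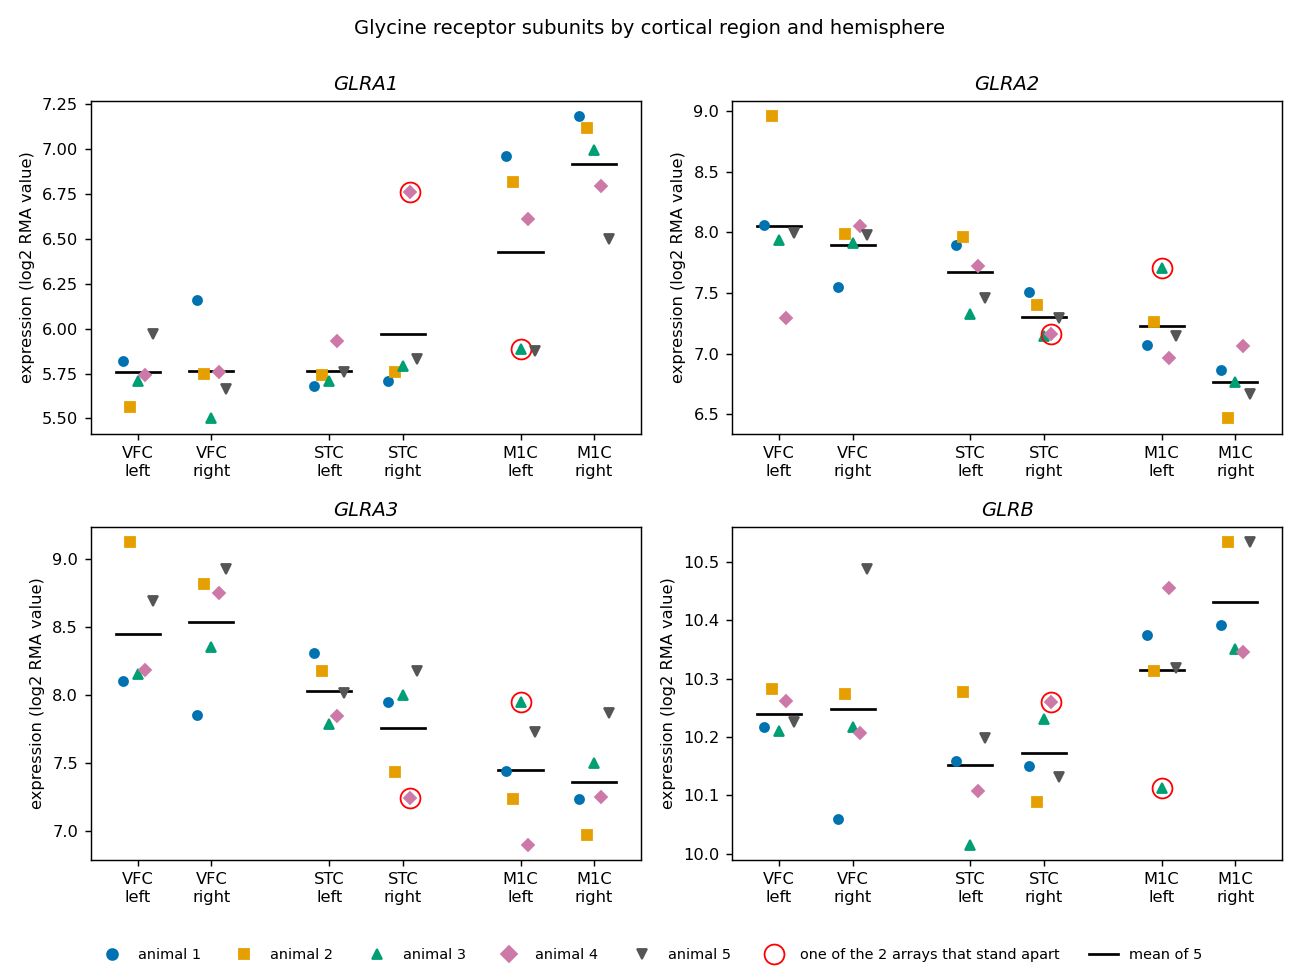
Log2 RMA value (vertical axis) of each glycine receptor gene on all 30 arrays, by region and hemisphere, with a symbol per animal, a black line for the mean of 5 animals and red rings on the 2 arrays that stand apart. GLRA1 is highest in M1C, while GLRA2 and GLRA3 are highest in VFC, and GLRB spans a narrow range from 10.02 to 10.53.

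GLRA2, the alpha subunit of immature neurons, had the opposite order, with VFC highest and M1C lowest. It read 7.81, 8.48, 7.93, 7.67 and 7.99 in VFC of animals 1 to 5. It read 7.70, 7.68, 7.24, 7.44 and 7.37 in STC, and 6.97, 6.86, 7.24, 7.01 and 6.90 in M1C. Every VFC value exceeded every M1C value, and STC lay between them in 4 animals, while in animal 3 STC and M1C were equal at 7.24. The means were 7.97 ± 0.31 in VFC, 7.49 ± 0.20 in STC and 6.997 ± 0.15 in M1C (SD, n = 5).

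For GLRA2, VFC minus M1C was 0.98 ± 0.13, a 1.97-fold higher value in VFC, and was positive in 5 of 5 animals. STC minus M1C was 0.49 ± 0.13, positive in 4 of 5, and VFC minus STC was also 0.49 ± 0.13, positive in 5 of 5. Leaving out the 2 arrays that stood apart gave 1.07, 0.64 and 0.43 for VFC minus M1C, STC minus M1C and VFC minus STC, with STC minus M1C then positive in 5 of 5 animals and VFC minus STC in 4 of 5. Over single arrays, the VFC and M1C values overlapped when all were used. They separated narrowly without the 2 arrays, the lowest VFC array being 7.29 and the highest M1C array 7.26.

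GLRA3, the alpha subunit known from the dorsal horn, followed the order of GLRA2. It read 7.98, 8.97, 8.26, 8.47 and 8.81 in VFC of animals 1 to 5. In STC the values were 8.13, 7.80, 7.89, 7.54 and 8.10, and in M1C they were 7.33, 7.10, 7.72, 7.07 and 7.80. VFC lay above M1C in every animal, and STC lay above M1C in every animal, but in animal 1 STC exceeded VFC. The means were 8.50 ± 0.40 in VFC, 7.89 ± 0.24 in STC and 7.41 ± 0.34 in M1C (SD, n = 5).

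For GLRA3, VFC minus M1C was 1.09 ± 0.17, 2.13-fold higher in VFC. STC minus M1C was 0.49 ± 0.17 and VFC minus STC was 0.60 ± 0.17. The same differences without the 2 arrays were 1.14, 0.59 and 0.54. Animals differed in the size of the VFC minus M1C difference, from 0.53 in animal 3 to 1.87 in animal 2, and animal 2 also had the largest GLRA2 difference, 1.61.

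GLRB, the beta subunit that binds gephyrin, varied little between regions, with M1C highest, VFC next and STC lowest. It read 10.14, 10.28, 10.21, 10.23 and 10.36 in VFC of animals 1 to 5. In STC it read 10.15, 10.18, 10.12, 10.18 and 10.16, and in M1C 10.38, 10.42, 10.23, 10.40 and 10.43. Each animal's M1C value was its highest, and the highest STC value, 10.18, lay below the lowest M1C value, 10.23. The means were 10.24 ± 0.081 in VFC, 10.16 ± 0.025 in STC and 10.37 ± 0.081 in M1C (SD, n = 5).

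GLRB fell in STC relative to M1C, by limma with Benjamini-Hochberg adjustment over all 24292 tested probe sets. The difference was -0.21 ± 0.042 (1.16-fold, adjusted p = 0.0278, lower in 5 of 5 animals), in a comparison that called 2.36% of tested probe sets. Without the 2 arrays that stood apart, when the comparison called 12.6% of probe sets, it was -0.25 (limma adjusted p = 0.00219). The 9 remaining STC arrays, 10.02 to 10.28, then no longer overlapped the 9 remaining M1C arrays, 10.31 to 10.53. The share of all probe sets that separate likewise is not given, so this is a description of GLRB alone. Leaving out 4 arrays gave -0.27 (limma adjusted p = 0.0023), with 12% of probe sets called. The call was lost without the filter on dim probe sets (adjusted p = 0.0728), without the animal block (adjusted p = 0.10) and in each hemisphere alone (left -0.16, adjusted p = 0.333, and right -0.26, adjusted p = 0.172). It was also lost when any animal other than animal 3 was left out, with differences from -0.21 to -0.20. The limma adjusted p was then 0.123 without animal 1, 0.130 without animal 2, 0.0876 without animal 4 and 0.0968 without animal 5. Calls fell over the whole table in these settings, from 574 as fitted to 123 of 40489 without the filter and 0 of 24292 without the block. They numbered 0 on the left alone, 25 on the right alone, and 2, 2, 256 and 180 without animals 1, 2, 4 and 5.

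For VFC minus M1C, a comparison that called 10.5% of tested probe sets, the GLRB difference was -0.13 ± 0.042 (limma adjusted p = 0.0778). It was negative in 5 of 5 animals, from -0.24 in animal 1 to -0.017 in animal 3, but missed the threshold of 0.05. Without the 2 arrays, when 14.7% of probe sets were called, the difference was -0.15 and passed (limma adjusted p = 0.0216), and without 4 arrays, when 15% were called, it was -0.16 (limma adjusted p = 0.0254). VFC minus STC was 0.082 ± 0.042 (limma adjusted p = 0.44, 95% interval -0.010 to 0.17), in a comparison that called 0.214% of tested probe sets, 0.655% without the 2 arrays and 1.1% without 4.

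**Figure D2:**
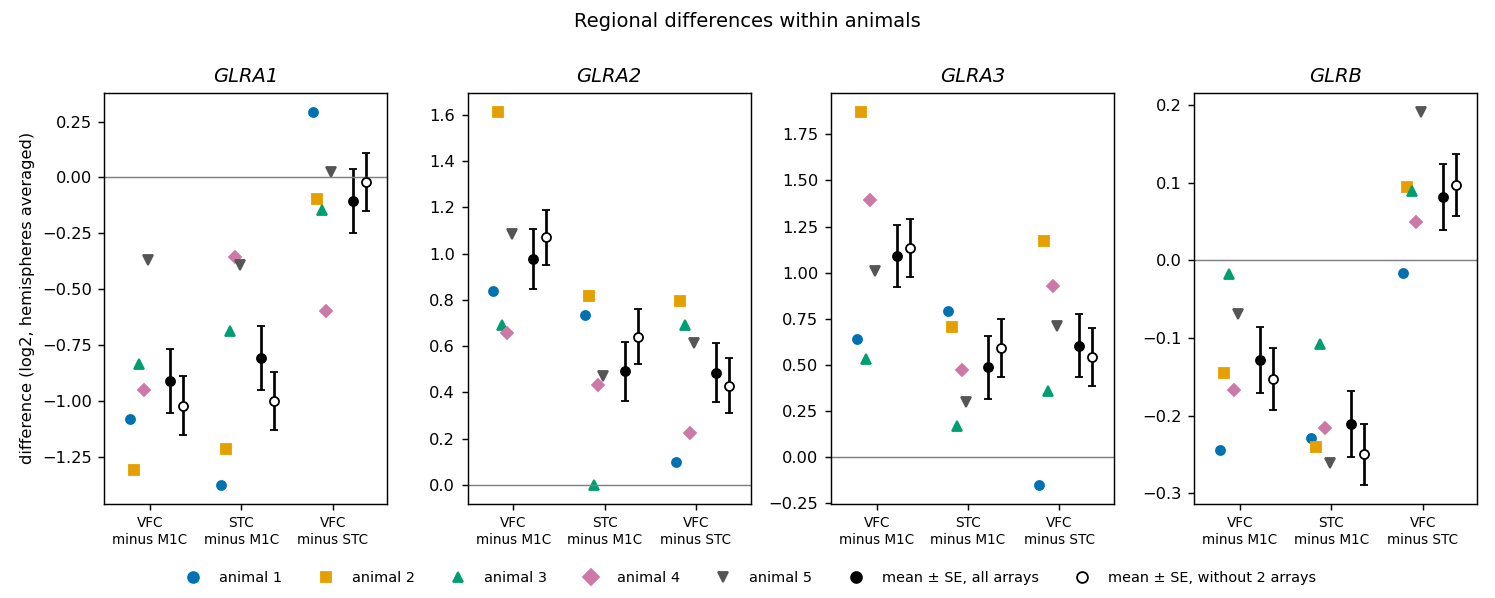
Regional differences of each gene within animals (vertical axes, log2, hemispheres averaged, a separate scale for each gene), with a coloured symbol per animal and the limma mean ± SE with all arrays (filled) and without the 2 arrays that stand apart (open). VFC minus M1C is below 0 in all 5 animals for GLRA1 and GLRB and above 0 in all 5 for GLRA2 and GLRA3.

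Cell type markers also differed between the regions, and their part in the values above was not tested. Of all tested probe sets, 5.32% were called lower and 5.19% higher in VFC than in M1C, and 1.14% lower in STC than in M1C. Genes of large projection and fast-firing neurons (SYT2, VAMP1, KCNA1 and KCNC1) were lower in VFC than in M1C in 4 of 4, with a median difference of -1.02, and lower in STC than in M1C in 4 of 4, with a median of -0.63. The mean of these 4 genes ranged over animals from 8.58 to 9.32 in VFC, from 9.20 to 9.82 in STC and from 9.84 to 10.3 in M1C. NEFH and NEFM, the other genes of this list, had no probe set with that symbol alone. All 6 tested oligodendrocyte genes, myelin genes among them, were lower in VFC than in M1C, with a median of -0.95, and none of the 6 passed for STC minus M1C, where the median was -0.45. Without the 2 arrays that stood apart, 5 of 6 were lower in STC than in M1C, with a median of -0.61, and without 4 arrays 2 of 6 were. The comparison then called 12.6% and 12% of all tested probe sets in either direction, against 2.36% with all arrays. Their mean ranged from 8.48 to 9.86 in VFC, from 9.36 to 10.3 in STC and from 9.97 to 10.5 in M1C. Of the excitatory neuron genes 2 of 3 were higher in VFC than in M1C. Of the inhibitory interneuron genes 1 of 7 was higher and 1 lower. Of the oligodendrocyte precursor genes 1 of 2 was lower, and of the vascular genes 1 of 4. For astrocyte genes 0 of 5 passed, with a median of -0.029. For microglial genes 0 of 3 passed, for upper-layer genes 0 of 3 and for deep-layer genes 0 of 5. Of the meningeal genes 3 of 4 were higher, and 2 of 4 without the 2 arrays, when 14.7% of all tested probe sets were called.

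On the arrays that stood apart, the large projection and fast-firing neuron genes, the oligodendrocyte genes and GLRA1 lay on the same side. These arrays were singled out by their profile over all tested probe sets, so the shared side is a description and no test of a marker list. M1C left of animal 3 read 5.89 for GLRA1, against 6.995 on the right of that animal, and the mean of the 4 marker genes was 9.33 on the left, against 10.4 on the right. STC left of animal 4 read 5.93 for GLRA1 and 9.34 for the marker mean, against 6.76 and 10.3 on the right. The oligodendrocyte mean was 9.59 on the left and 10.5 on the right in M1C of animal 3, and 9.96 and 10.6 in STC of animal 4. The meningeal mean was 7.94 on the left and 7.52 on the right in M1C of animal 3, and 6.99 and 8.18 in STC of animal 4. M1C of animal 5 differed from the arrays that stood apart, with 5.87 for GLRA1 on the left, against 6.50 on the right. Its means of the 4 large projection and fast-firing neuron genes were 9.88 on the left and 9.89 on the right. Its oligodendrocyte means were 9.99 and 9.96. The left M1C array of animal 5 had a correlation of 0.20 with the M1C profile and 0.17 with the STC profile. For the right M1C array these were 0.34 and -0.25.

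Left against right was compared within animals. GLRA1, for which this contrast is a description, read lower on the left in M1C of every animal: 6.96, 6.82, 5.89, 6.61 and 5.87 on the left of animals 1 to 5, against 7.19, 7.12, 6.995, 6.79 and 6.50 on the right. The left minus right difference in M1C averaged -0.49 and ranged from -1.11 in animal 3 to -0.19 in animal 4. Without the 2 arrays that stood apart it averaged -0.33 and was negative in the 4 remaining animals.

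In STC, GLRA1 read 5.68, 5.74, 5.71, 5.93 and 5.76 on the left, against 5.71, 5.76, 5.79, 6.76 and 5.83 on the right. The mean left minus right difference was -0.21 there, most of it from animal 4, and -0.049 without the 2 arrays. In VFC it read 5.82, 5.56, 5.71, 5.74 and 5.97 on the left, against 6.16, 5.75, 5.50, 5.76 and 5.67 on the right, and the difference was -0.0070 with mixed signs. Over all regions GLRA1 was -0.23 ± 0.043 left minus right and negative in 5 of 5 animals. Without the 2 arrays it was -0.11 and negative in 4 of 5, but animal 3 then had no M1C pair and animal 4 no STC pair. The all-region means of those animals thus covered fewer regions, which changes the weight of each region.

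GLRA2 ran the other way in most animals. In M1C it read 7.07, 7.26, 7.71, 6.96 and 7.14 on the left of animals 1 to 5, against 6.86, 6.46, 6.77, 7.06 and 6.66 on the right. In STC it read 7.90, 7.96, 7.33, 7.73 and 7.46 on the left, against 7.51, 7.40, 7.14, 7.16 and 7.29 on the right. The left value was the higher in 4 of 5 animals in M1C and in 5 of 5 in STC. In VFC it read 8.06, 8.96, 7.94, 7.29 and 7.995 on the left, against 7.55, 7.99, 7.92, 8.05 and 7.98 on the right, where the difference was close to 0 in animals 3 and 5 and of opposite sign in animal 4.

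No GLRA2 left minus right difference passed the threshold after adjustment. Over all regions it was 0.33 ± 0.10, positive in 4 of 5 animals, with an unadjusted limma p of 0.0107, an adjusted p of 0.602 and a 95% interval of 0.099 to 0.56. By region it was 0.15 in VFC, 0.37 in STC and 0.47 in M1C, with limma adjusted p values of 1.00, 0.999 and 0.851. The all-region difference without the 2 arrays was 0.21 (limma adjusted p = 0.998), with a region missing in animals 3 and 4. By region it was then 0.15 in VFC, 0.32 in STC and 0.35 in M1C.

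Over all regions, GLRA3 and GLRB had smaller differences than GLRA2, with signs mixed over animals. For GLRA3, left minus right was 0.088 over all regions (limma adjusted p = 0.924, 95% interval -0.11 to 0.28). By region it was -0.090 in VFC, 0.27 in STC and 0.088 in M1C. Without the 2 arrays the all-region value was -0.026, with a region missing in animals 3 and 4. The values by region were then -0.090 in VFC, 0.18 in STC and -0.0027 in M1C. For GLRB, left minus right was -0.049 over all regions (limma adjusted p = 0.914, 95% interval -0.15 to 0.047) and lay between -0.12 in M1C and -0.0095 in VFC. Whether left minus right varied between regions was tested by a moderated F test, which gave 0.785 for GLRA2, 1.40 for GLRA3 and 0.660 for GLRB (limma adjusted p = 0.995 for each).

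The lack of calls was common to all probe sets. With limma, 0 of 24292 passed left against right in any region, over all regions or in the interaction. The counts at an unadjusted p under 0.05 were 869 in VFC, 1133 in STC, 1367 in M1C, 1608 over all regions and 912 for the interaction.

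**Figure D3:**
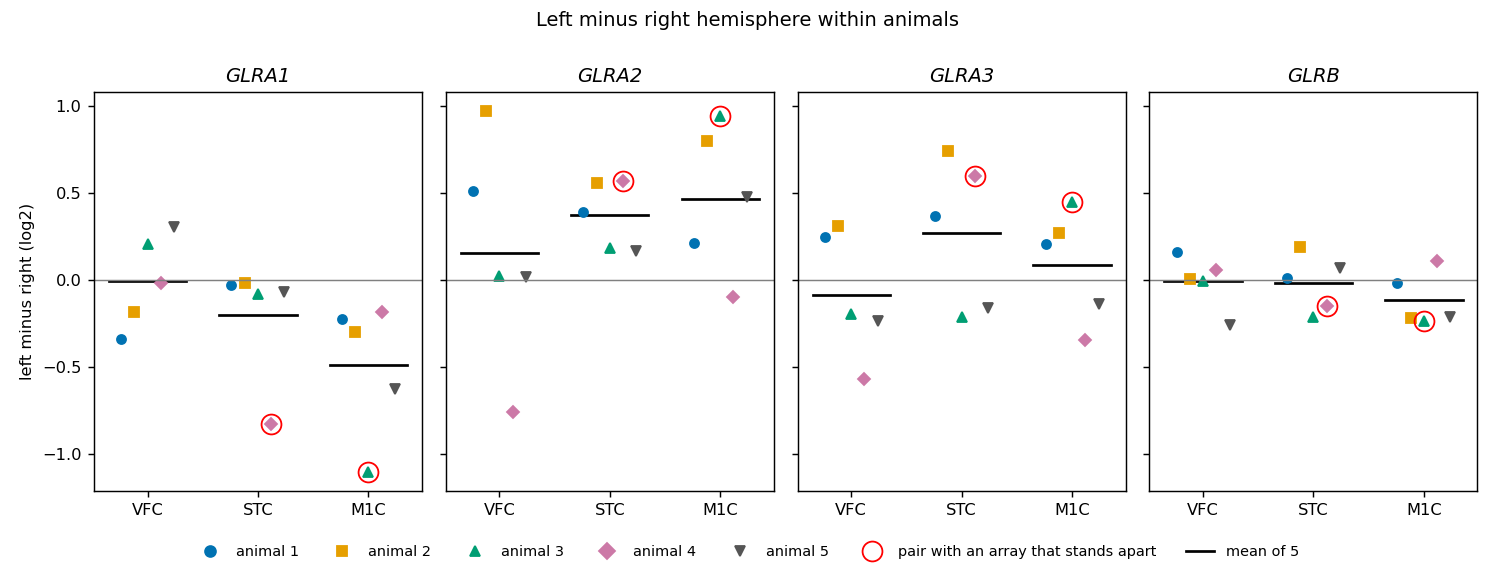
Left minus right difference within each animal (vertical axis, log2) for each gene and region, with a symbol per animal, a black line for the mean of 5 animals and red rings on pairs that include an array that stands apart. GLRA1 is below 0 in all 5 animals in M1C, with animal 3 at -1.11, and GLRA2 is above 0 in all 5 animals in STC.

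Region took the largest share of the variation of all 4 genes over the 30 arrays, as sums of squares. It was 60.6% for GLRA1, 57.9% for GLRA2, 61.3% for GLRA3 and 43.4% for GLRB. Animal took 7.87%, 3.79%, 10.1% and 12.2% of the variation of GLRA1, GLRA2, GLRA3 and GLRB. Variation of the regional differences between animals (animal by region) took 14.6%, 11.3%, 17.6% and 8.80% in the same order. The residual share was 7.71%, 8.16%, 4.59% and 19.4%. Hemisphere took 5.00% for GLRA1, 9.96% for GLRA2, 0.602% for GLRA3 and 3.45% for GLRB.

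GLRA2 and GLRA3 moved together over the 15 values of animal and region, with Pearson's r of 0.93 after each animal's mean was removed and 0.67 after the regional means were removed as well. GLRA1 ran against GLRA2 and GLRA3, with r of -0.81 for each, and these became -0.35 and -0.54 once region was removed. GLRA1 and GLRB had r of 0.75, and 0.20 once region was removed. These correlations are descriptions: all genes were read from the same arrays, and the values fall into 3 regions.

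**Figure D4:**
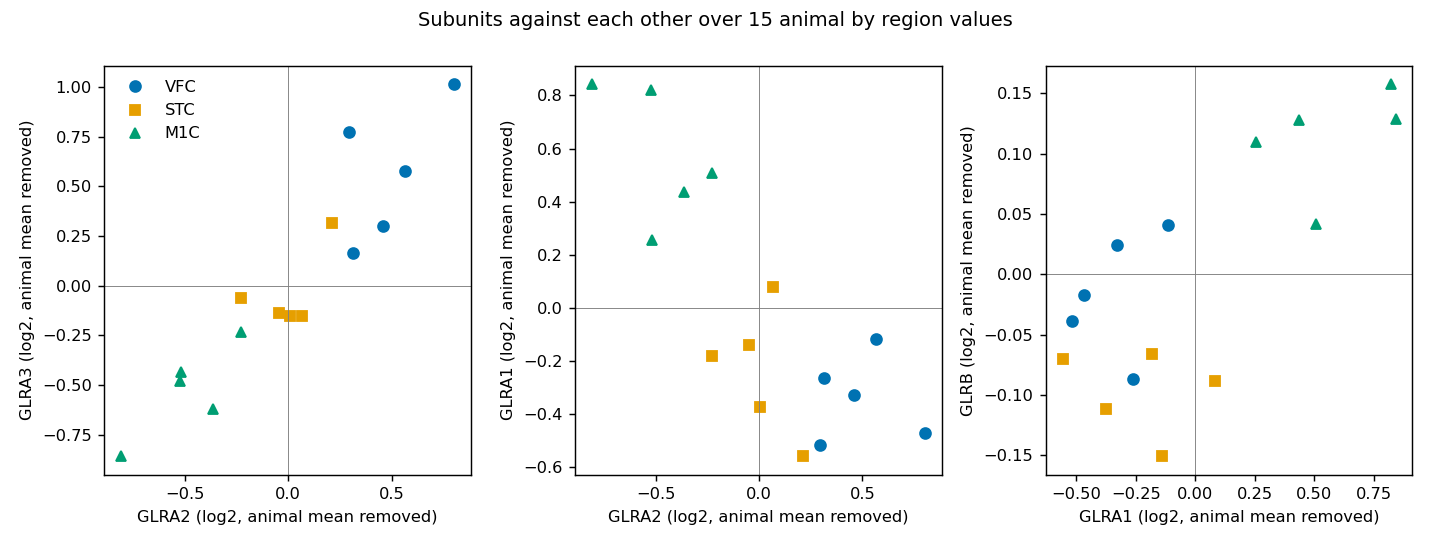
Values of pairs of glycine receptor genes (both axes in log2, animal means removed, hemispheres averaged) over the 15 combinations of animal and region, coloured by region. GLRA2 and GLRA3 lie along a rising line (r = 0.93), while GLRA1 falls as GLRA2 rises (r = -0.81).

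The genes most like each member over the same 15 values, among 10949 genes compared by Pearson's r with animal means removed, are given as a description. For GLRA1 they were LAP3 (0.978), STK39, SLC12A2, PPTC7 and ACSL1 (0.969). For GLRA2 they were DCLK2 (0.978), IDS, ZCCHC12, DPYSL3 and RASGEF1A (0.967). For GLRA3 they were CXADR (0.985), L3MBTL4, PPFIA2, CSMD3 and SERTM1 (0.976), and for GLRB they were CLTC (0.952), ARHGEF10, GLO1, NDUFB4 and GHITM (0.938).

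The same comparison was made over the 30 single arrays with animal means kept, so that both the averaging and the removal of animal means differed. STK39 and PPTC7 were in the first 5 for GLRA1 both times, and L3MBTL4 and PPFIA2 for GLRA3. For GLRA2 and GLRB no gene was in both lists, with PGAP1 (0.905) and APC (0.775) then first. The first GLRB value there was the lowest of the 4 first values, with 0.927 for GLRA1 and 0.934 for GLRA3.

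Other genes that move, anchor or metabolise glycine or set the chloride gradient were taken as a list of 25, of which 19 had a probe set with that symbol alone and 17 were tested. The list genes with no such probe set were not analysed here. For VFC minus M1C, 4 of the 17 were lower and 0 higher, with 5.32% of all tested probe sets called lower and 5.19% called higher. The median difference over the 17 was -0.079, and 0.0028 over all tested probe sets. For STC minus M1C, 3 of 17 were lower and 0 higher, beside 1.14% and 1.22% of all tested probe sets, and for VFC minus STC 0 of 17 were lower or higher, beside 0.0659% and 0.148%.

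Membrane transporters led the VFC minus M1C calls. SLC12A2, the chloride importer NKCC1, read 9.26 ± 0.17 in VFC, against 9.72 ± 0.19 in M1C, a difference of -0.46 ± 0.071 (limma adjusted p = 0.00332). SLC6A9, the glial glycine transporter GlyT1 that clears glycine from the synapse, read 8.45 ± 0.28 in VFC, against 8.85 ± 0.062 in M1C, a difference of -0.40 ± 0.098 (limma adjusted p = 0.0218). SLC7A10, an exchanger of glycine and D-serine, had a difference of -0.36 ± 0.072 (limma adjusted p = 0.00916). PHGDH, which starts serine synthesis, had one of -0.19 ± 0.055 (limma adjusted p = 0.0484), and each of these 4 was lower in 5 of 5 animals.

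For STC minus M1C, SLC7A10 (-0.37, limma adjusted p = 0.0268), SLC12A2 (-0.34, limma adjusted p = 0.0302) and PSAT1, the next enzyme of serine synthesis (-0.29 ± 0.068, limma adjusted p = 0.0477), were lower. All 3 calls ended without the animal block, without the filter and in either hemisphere alone, and 0 to 2 genes passed when an animal was left out. The count for VFC minus M1C was 2 without the block, 2 without the filter and 0 in the left hemisphere alone. Calls over the whole table fell there too. STC minus M1C called 0 probe sets without the block, 123 of 40489 without the filter, 0 on the left alone, 25 on the right alone and 2 to 427 leaving out an animal. VFC minus M1C called 833 of 24292 without the block, 1676 of 40489 without the filter and 3 on the left alone. Without the 2 arrays that stood apart, 4 of 17 genes were lower for STC minus M1C and 6 of 17 for VFC minus M1C. These comparisons then called 12.6% and 14.7% of all tested probe sets in either direction. Without 4 arrays the counts were 3 and 7, with 12% and 15% called.

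GPHN, which encodes the scaffold gephyrin, read 9.36 ± 0.067 in VFC and 9.41 ± 0.079 in STC, against 9.27 ± 0.060 in M1C, and its VFC minus M1C difference was 0.086 (limma adjusted p = 0.302). SLC32A1, the vesicular transporter that loads glycine and GABA, had a VFC minus M1C difference of -0.13 (limma adjusted p = 0.169). SLC12A5, the chloride exporter KCC2, had one of -0.053 (limma adjusted p = 0.552).

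The 2 list genes below the filter were GLRA4 and SLC6A5. SLC6A5, the neuronal glycine transporter GlyT2 that marks glycine-releasing neurons, read 4.45 ± 0.16 in VFC and 4.55 ± 0.083 in STC, against 4.44 ± 0.12 in M1C (SD, n = 5), well below the filter of 6.04 in all 3 regions. GLRA4, the remaining alpha subunit gene, a pseudogene in humans, read 6.28, 5.91, 6.16, 5.84 and 6.01 in VFC of animals 1 to 5 and 6.42, 6.17, 6.42, 6.15 and 6.09 in STC, against 5.80, 5.91, 5.70, 5.78 and 5.92 in M1C. Its STC minus M1C difference was 0.43 ± 0.082 in the fit with no filter (limma adjusted p = 0.0576), and STC was higher in 5 of 5 animals, without passing the threshold.

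**Figure D5:**
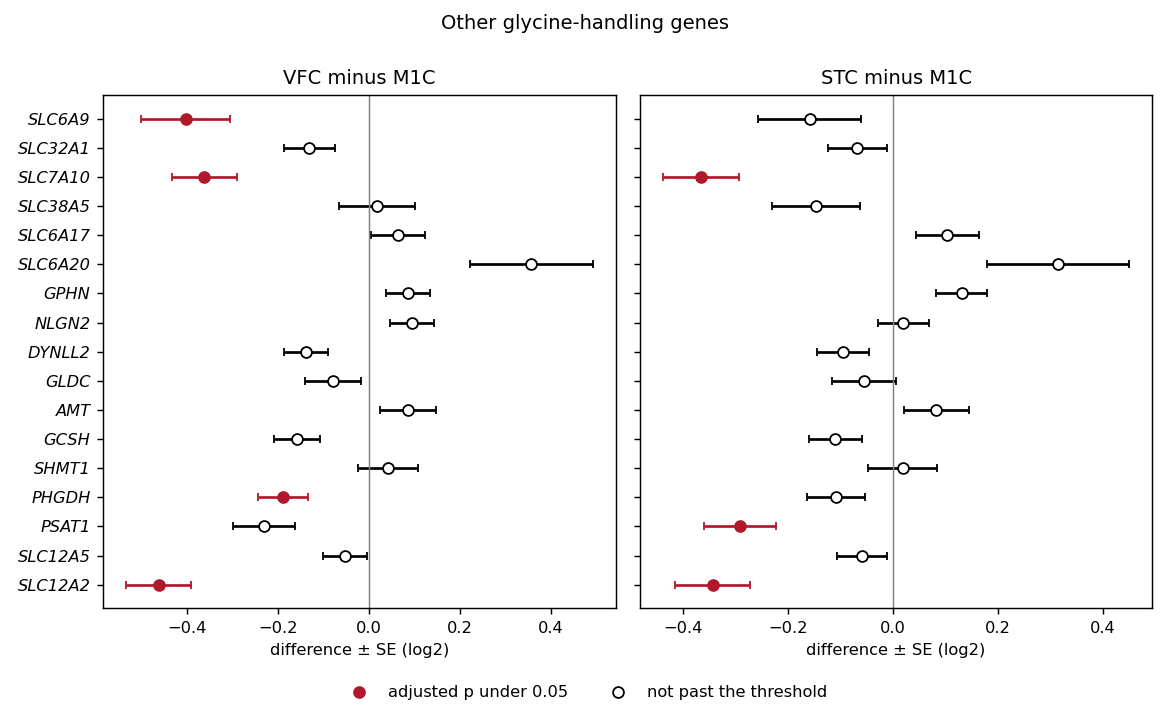
Difference ± SE (horizontal axes, log2) of the 17 tested glycine-handling genes for VFC minus M1C and STC minus M1C, with genes past an adjusted p of 0.05 in filled red and the others open. The 4 VFC minus M1C calls and the 3 STC minus M1C calls all lie below 0.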

How the data were processed

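The deposited table held log2 intensities of 40489 probe sets on 30 arrays, made by the authors by RMA with the oligo package, per the submitters' processing notes; versions and genome build are not given in the sources used here, so no coordinates are printed. Array medians lay between 6.57 and 6.64; arrays have no read depth, and the 5 animals limit the precision. Symbols were taken from the platform's annotation table (16020 probe sets with 1 symbol, 490 with several). Probe sets with a mean above the 40th percentile were tested, 24292 in all. Control probe sets are not marked and were not removed.

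All models were fitted on the whole table with limma (version 3.58.1, R version 4.3.3; data.table version 1.17.8 for input), with two-sided p-values adjusted by Benjamini-Hochberg and a threshold of 0.05. Errors are SE from limma unless SD is named. Region comparisons averaged the hemispheres to 15 values with animal as a block. Left minus right was fitted on 15 within-animal differences, or on 5 animal means for all regions. The labels number the animals, so samples pair by animal, and the check of that pairing found 28 of 30 arrays nearest their own animal. Scripts were tested on simulated data.

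The members, gene lists and left-out arrays were chosen with earlier results of these data known. No p is printed for regions of GLRA1, GLRA2 and GLRA3 or for hemispheres of GLRA1; a p had been planned for GLRA1 regions and was withheld, since earlier results may have used that contrast. Named genes are the members, all list genes past the threshold, SLC6A5, SLC6A9, SLC32A1 and GPHN, and the 5 genes most like each member; GLRA4, SLC12A5 and the comparison of single arrays by marker level were added after values were seen. Alternatives were the filter, the variance moderation, array centring, the block, each hemisphere, each animal left out and the arrays that stood apart left out.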

Additional observations from a re-analysis of the deposited data

Results flagged for a closer look

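In groups of 5 animals, the highest or lowest value was set against the gap to its neighbour by Dixon's test at 95%. Of 52 groups tested, 4 had a value that stood apart, and chance gives about 1 in 20. GLRA1 on the right STC array of animal 4 read 6.7616, against 5.71 to 5.83 in the other animals, and this array goes against its labels. The same array set the GLRA1 left minus right difference in STC of animal 4, which was -0.8296, against -0.083 to -0.016 in the others. GLRA2 in right VFC read 7.5517 in animal 1, against 7.92 to 8.05 in the others. The GLRB difference STC minus M1C was -0.1075 in animal 3, against -0.26 to -0.22 in the others; the M1C mean of animal 3 includes the left array that goes against its labels.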

How the results depend on the processing

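The cause of these changes was not tested. The 5 animals and low signal (GLRA1) limit the precision. As fitted, 2554, 574 and 52 probe sets passed for VFC minus M1C, STC minus M1C and VFC minus STC; over the alternatives the counts ran from 3 to 3634, 0 to 3057 and 0 to 555. The mean of several probe sets per gene could not be tried, since each member had 1.

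GLRB STC minus M1C was -0.21 without the filter on dim probe sets and -0.21 without the animal block (limma adjusted p = 0.10). It was below the call in each, as it was in the left hemisphere alone (-0.16) and the right alone (-0.26). Leaving out an animal gave -0.24 to -0.20. Over the whole table STC minus M1C called 123 of 40489 probe sets without the filter and 0 of 24292 without the block. It called 0 on the left alone and 25 on the right alone. GLRB VFC minus M1C passed with trend and robust variance moderation (-0.13, limma adjusted p = 0.0463), without 2 arrays (-0.15) and without 4 (-0.16).

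The glycine-handling genes lower in STC minus M1C numbered 3 as fitted, 0 in the left hemisphere alone and 0 in the right alone. They numbered 0 without the filter, 0 without the block, and 0 to 2 leaving out an animal. Without 2 and 4 arrays they numbered 4 and 3, when STC minus M1C called 3057 and 2904 of 24292 probe sets. Those lower in VFC minus M1C numbered 4 as fitted, 0 in the left hemisphere alone, 2 without the filter and 2 without the block. They numbered 6 without 2 arrays, 7 without 4 arrays and 2 to 4 leaving out an animal. Over the whole table VFC minus M1C called 3 probe sets on the left alone and 1676 of 40489 without the filter. It called 833 of 24292 without the block, 3583 without 2 arrays and 3634 without 4 arrays. Removing the block changed no other call of a member or count of list genes.

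Left minus right over all regions was -0.11 and -0.095 for GLRA1 without 2 and 4 arrays, -0.026 and -0.0024 for GLRA3, and 0.0018 for GLRB without 4. The pairs of the left-out arrays were missing there, so animals 3 and 4 were averaged over fewer regions than the other animals. By region, GLRA3 turned to -0.0027 in M1C without 2 or 4 arrays and to 0.030 in VFC without 4, and GLRB in STC to 0.012 and 0.088 without 2 and 4. Leaving out an animal gave -0.052 to 0.38 for GLRA2 in VFC, -0.0027 to 0.20 for GLRA3 in M1C, -0.19 to 0.030 for GLRA3 in VFC, -0.073 to 0.028 for GLRB in STC and -0.051 to 0.053 for GLRB in VFC. Among the alternatives, 412 values kept direction and call (counts: within 1.5 times), as did 130 left minus right values of single regions. Of the rest, 17 were labelled moved, 8 weaker, 3 stronger and 3 reversed, and 11 left minus right values of single regions were reversed.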
